A study of Mus musculus with 12 samples.

Results

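The genes described here are 10 transcription factor genes known for their part in the maturation of natural killer (NK) cells: Tbx21, Eomes, Zeb2, Prdm1, Irf8, Zfp683, Ikzf3, Gata3, Klf2 and Foxo1. They were matched by mouse Ensembl gene ID in the deposited table of FPKM values (read fragments scaled for the length of a gene and the size of a library) and are 10 of its 37991 genes. The rule names the genes and uses no measured value, but the genes were chosen with earlier results of these data known. All 10 passed the filter on low values (FPKM at or above 1 in 3 or more libraries), as did 12384 genes in all. NK cells of C57Bl/6 mice had been sorted out of bone marrow by NK1.1 and CD49b, and their RNA was sequenced in bulk in 12 libraries, 3 for each of 4 groups. Recombination was driven by Ncr1Cre, which is active in cells that express Ncr1, the gene of the NK receptor NKp46, and so only from the stage at which that gene is on. The group Id2KO carried Ncr1Cre with floxed Id2, the group Tcf1KO carried Ncr1Cre with floxed Tcf7, and the group DKO carried Ncr1Cre with both floxed genes. The group Ctrl had no Cre and carried floxed Id2 alone or floxed Id2 with floxed Tcf7. The labels do not say which control library had which alleles, and every comparison with Ctrl also compares mice with and without Cre. Ages are not given, and the labels call the samples independent without naming animals. The p-values therefore measure only how far these samples spread, which may be technical.

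NK cells arise in the bone marrow and pass through stages in which they lose CD27 and gain CD11b, KLRG1, granzymes and the receptors that let them leave for blood and spleen. The T-box factors T-bet (Tbx21) and Eomesodermin (Eomes) are the core of this program, with Eomes tied to NK identity and T-bet to its late steps. ZEB2 (Zeb2) and Blimp-1 (Prdm1) act late, Hobit (Zfp683) is a close relative of Blimp-1 known from tissue-resident lymphocytes, and IRF8, Aiolos (Ikzf3) and GATA-3 support maturation or exit from the marrow. KLF2 and FOXO1 are tied to quiescence and homing, and FOXO1 is known to hold back Tbx21. ID2 binds E proteins and keeps them off their DNA sites, called E boxes. TCF-1, the product of Tcf7, binds DNA through a high mobility group domain and is high in immature NK cells.

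The 250 bases before the annotated start were searched for the letters bound by these factor classes, on both strands: CAGCTG and CAGGTG as E boxes, TCAAAG for TCF factors and AGGTGT for T-box factors. RefSeq promoters (build GRCm38.p6) were matched for 8 of the 10 genes, with 12 promoters in all. CAGGTG stood in the promoters of Tbx21 and Prdm1 and in the second promoter of Irf8, so in 3 of the 8 genes. It stands in 17.2% of the 32841 RefSeq promoters of the same length, and a difference from this share was not tested. The other motifs, CAGCTG (in 13% of all promoters), TCAAAG (13.8%) and AGGTGT (11.8%), stood in none of the 12. The promoters of Tbx21 and Prdm1 are shown. They were chosen because these genes had their lower values in the groups with targeted Id2 and hold an E box (in capitals). That both traits meet in them is therefore not a result. Zeb2 also had its lower values in these groups, and none of its promoters held any of the 4 motifs. The promoter of Eomes is shown because this gene had its lower values in the groups with targeted Tcf7 and held none of the 4 motifs.
Tbx21, chr11:97115332-97115581, minus strand: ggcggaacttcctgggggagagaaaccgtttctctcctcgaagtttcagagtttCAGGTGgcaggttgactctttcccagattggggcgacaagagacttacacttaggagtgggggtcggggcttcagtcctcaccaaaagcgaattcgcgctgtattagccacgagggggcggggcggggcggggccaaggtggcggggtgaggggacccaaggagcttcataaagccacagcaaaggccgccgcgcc
Prdm1, chr10:44458749-44458998, minus strand: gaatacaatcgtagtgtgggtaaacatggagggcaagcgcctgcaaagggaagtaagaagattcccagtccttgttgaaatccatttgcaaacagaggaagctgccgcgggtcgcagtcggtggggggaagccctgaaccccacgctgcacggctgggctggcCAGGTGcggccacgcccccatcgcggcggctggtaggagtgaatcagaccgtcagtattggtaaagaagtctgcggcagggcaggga
Eomes, chr9:118477939-118478188, plus strand: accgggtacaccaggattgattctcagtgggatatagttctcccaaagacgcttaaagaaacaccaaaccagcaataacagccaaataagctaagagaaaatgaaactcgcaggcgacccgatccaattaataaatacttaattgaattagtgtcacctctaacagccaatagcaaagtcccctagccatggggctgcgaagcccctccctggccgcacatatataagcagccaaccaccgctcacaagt
The E box began 196 bases before the RefSeq start of Tbx21 and 87 bases before that of Prdm1. The Prdm1 start used lies inside the span of the gene given below (44437177 to 44528501), not at its outer end. A match of letters describes the sequence and is not a measured binding site.

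FPKM is scaled to gene length, so levels can be set side by side between genes. In the control cells the 10 genes fell into a high and a low set. Klf2 (mean 74.1), Ikzf3 (57.2), Eomes (47.3), Tbx21 (28.1) and Foxo1 (27.3 FPKM) stood at or above percentile 92.6 of all tested genes. Irf8 (9.80), Prdm1 (8.40), Gata3 (7.96), Zeb2 (5.25) and Zfp683 (5.12 FPKM) stood between percentiles 60.9 and 77.5. The lowest control library of the high set (Foxo1 at 22.6) was above the highest of the low set (Irf8 at 11.4). Within each set most neighbours in this order overlapped: Klf2 ranged from 32.8 to 117 FPKM across the controls and overlapped Ikzf3 (36.3 to 71.2) and Eomes (42.2 to 54.4). Eomes and Tbx21 (24.0 to 31.3) did not overlap.

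**Figure D1:**
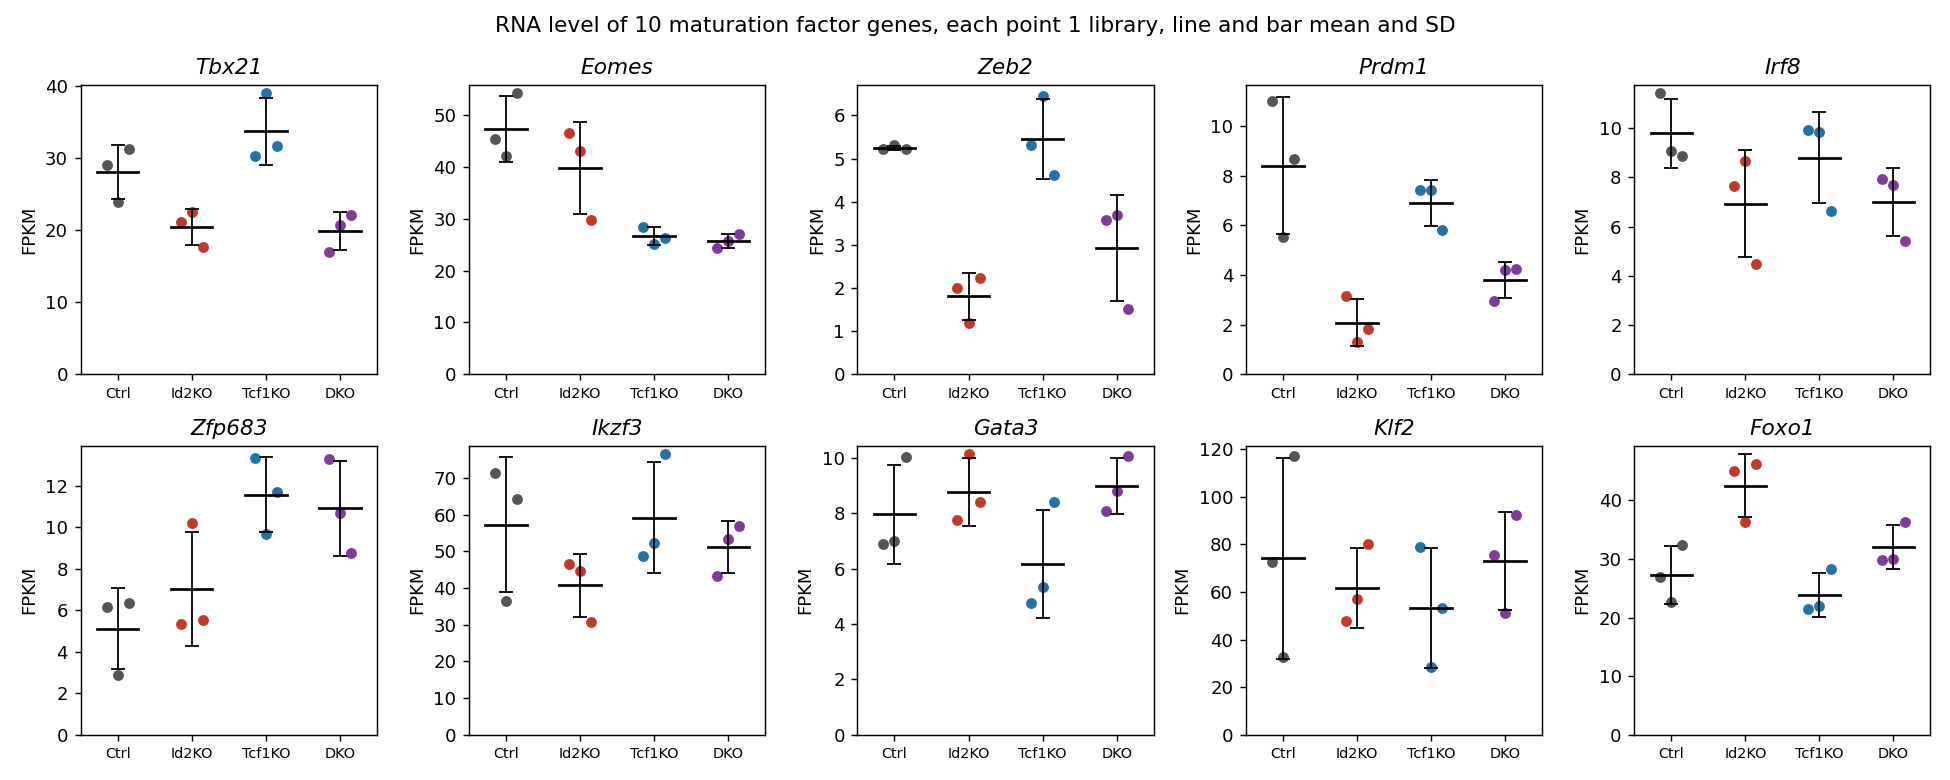
FPKM of each of the 10 genes in each of the 12 libraries, grouped as Ctrl, Id2KO, Tcf1KO and DKO; each point is 1 library, each line the mean of 3 and each bar the SD. Zeb2 and Prdm1 are lower in every Id2KO and DKO library than in every Ctrl and Tcf1KO library, and Eomes is lower in every Tcf1KO and DKO library than in every Ctrl and Id2KO library.

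As a whole the libraries gave 13975523 to 20208160 reads assigned to genes, recovered from the steps between FPKM values, and mitochondrial ribosomal RNA took 23.6% to 32.4% of them. Id2 stood at 124, 163 and 170.0 FPKM in Ctrl and at 17.8, 17.1 and 19.2 in Id2KO, with 48.8, 41.2 and 36.8 in DKO, while the lowest library without targeted Id2 had 102. Tcf7 over the whole gene (37.7, 38.6 and 46.5 FPKM in Ctrl against 29.6, 37.3 and 38.0 in Tcf1KO) does not check the label, since exons outside the floxed segment are counted too. In DKO it stood at 53.9, 60.0 and 73.3, above every control (log2 difference 0.59, adjusted p = 0.226). Directions given for the libraries labelled Tcf1KO and DKO therefore rest on the labels. The NK identity list (14 genes, among them Ncr1, Klrb1c and Itga2) had 0 genes at 0 in any group. Id2KO replicate 3, DKO replicate 3 and Ctrl replicate 2 had the lowest array weights (0.554 to 0.590), and values without these 3 libraries are given for Eomes, Zeb2, Prdm1 and Irf8.

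Of the T-box genes, Tbx21 had its lower values where Id2 was targeted, and Eomes had its lower values where Tcf7 was targeted. Tbx21 (ENSMUSG00000001444, chromosome 11, 97098071 to 97115331, GRCm38), the gene of T-bet, stood at 29.0, 24.0 and 31.3 FPKM in Ctrl (28.1 ± 3.74, SD, n = 3) and at 21.1, 22.4 and 17.7 in Id2KO. It stood at 30.3, 39.0 and 31.7 in Tcf1KO and at 16.9, 20.6 and 22.0 in DKO. All 6 libraries with targeted Id2 lay below all 6 without, the nearest being Id2KO replicate 2 and Ctrl replicate 2. The differences on the log2(FPKM + 1) scale were -0.44 ± 0.17 (SE) in Id2KO against Ctrl (adjusted p = 0.410), -0.48 ± 0.17 in DKO against Ctrl (0.380) and -0.73 ± 0.17 in DKO against Tcf1KO (0.267), none past the threshold of 0.05.

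Eomes (ENSMUSG00000032446, chromosome 9, 118478212 to 118486132), the gene of Eomesodermin, stood at 45.4, 42.2 and 54.4 FPKM in Ctrl and at 28.5, 25.1 and 26.4 in Tcf1KO. In DKO it stood at 24.3, 25.6 and 27.1 FPKM. Id2KO had 46.6, 43.0 and 29.9, the last in replicate 3, and this was still above the highest Tcf1KO library. The 6 libraries with targeted Tcf7 were thus all below the other six. The log2 difference was -0.80 ± 0.17 (SE) in Tcf1KO against Ctrl (adjusted p = 0.318), -0.85 ± 0.17 in DKO against Ctrl (0.109) and -0.59 ± 0.17 in DKO against Id2KO (0.230). Without Id2KO replicate 3, which enters the DKO and Ctrl comparison only through the shared spread, the difference between DKO and Ctrl passed (-0.85, adjusted p = 0.0403). Ncr1, the gene whose locus drives the Cre, had 203, 168 and 204 FPKM in Ctrl and 138, 148 and 85.8 in Id2KO. It had 60.3, 63.7 and 70.4 in Tcf1KO and 62.4, 99.1 and 72.9 in DKO, so all 9 libraries with Cre lay below every control. The log2 difference from Ctrl was -0.66 in Id2KO (adjusted p = 0.346), -1.55 in Tcf1KO (0.143) and -1.30 in DKO (0.0567). The 14 NK identity genes as a list summed to 4562 to 5029 FPKM in Ctrl, 3191 to 4445 in Id2KO, 3426 to 3808 in Tcf1KO and 3289 to 4584 in DKO. Of the 14, 13 were lower in Id2KO than in Ctrl (5 without overlap, median -0.31), 12 in Tcf1KO (10 without overlap, -0.36) and 12 in DKO (7 without overlap, -0.39). Lack of overlap in either direction held for 13.9%, 10.7% and 13.5% of all tested genes in the same order. Their part in the results on Tbx21 and Eomes was not tested. Fewer cells with a gene on and less of its RNA per cell cannot be told apart in bulk RNA.

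The ratio of Tbx21 to Eomes, formed after the values were seen, puts both genes on a common scale. It was 0.638, 0.568 and 0.575 in Ctrl, 0.453, 0.521 and 0.592 in Id2KO and 1.07, 1.56 and 1.20 in Tcf1KO, with 0.694, 0.805 and 0.813 in DKO. Tbx21 exceeded Eomes in the Tcf1KO libraries alone. DKO lay between Tcf1KO and Ctrl without overlapping either, while Id2KO overlapped Ctrl. As a description, with no test, the mean ratio was 0.594 in Ctrl and 1.27 in Tcf1KO.

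**Figure D2:**
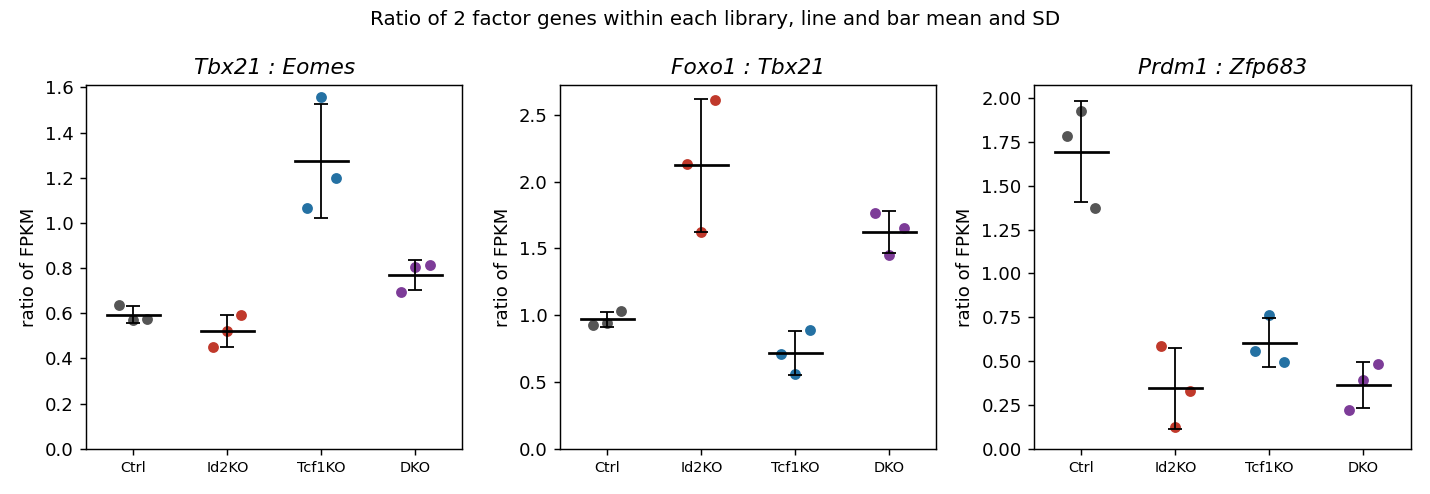
Ratios of FPKM in each library (points) with the group mean (line) and SD (bar), for Tbx21 to Eomes, Prdm1 to Zfp683 and Foxo1 to Tbx21, on axes that start at 0. The Tcf1KO libraries are the only ones with a Tbx21 to Eomes ratio above 1, and the Foxo1 to Tbx21 ratio is 1.45 or higher in every library with targeted Id2.

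Of the late factors, Zeb2 and Prdm1 had the lowest values where Id2 was targeted, with DKO between Id2KO and Ctrl on average. Zeb2 (ENSMUSG00000026872, chromosome 2, 44983632 to 45117395) encodes a zinc finger and homeobox repressor that promotes terminal maturation. It stood at 5.23, 5.31 and 5.21 FPKM in Ctrl and at 2.0, 1.19 and 2.22 in Id2KO. The Tcf1KO libraries had 5.33, 6.44 and 4.61, and the DKO libraries 3.57, 3.69 and 1.5. DKO replicates 1 and 2 lay above all Id2KO libraries and replicate 3 within their range, and none of the 6 reached a control. The log2 difference was -1.17 ± 0.25 (SE) in Id2KO against Ctrl (adjusted p = 0.140), -0.73 ± 0.25 in DKO against Ctrl (0.383) and -0.77 ± 0.25 in DKO against Tcf1KO (0.526). The Id2KO difference passed without DKO replicate 3 (-1.17, adjusted p = 0.0470) and with voom on recovered reads (-1.58, adjusted p = 0.0459). Leaving out DKO replicate 3 moved DKO against Ctrl to -0.43, DKO against Tcf1KO to -0.47 and DKO against Id2KO from 0.45 to 0.74, and leaving out Id2KO replicate 2 moved the last to 0.28. Without the 3 libraries of lowest array weight these 3 differences were -0.43, -0.47 and 0.85, and Id2KO against Ctrl was -1.28 (adjusted p = 0.123).

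Prdm1 (ENSMUSG00000038151, chromosome 10, 44437177 to 44528501) encodes the repressor Blimp-1. It stood at 11, 5.52 and 8.68 FPKM in Ctrl, 3.14, 1.28 and 1.83 in Id2KO and 7.43, 7.42 and 5.81 in Tcf1KO, with 2.97, 4.19 and 4.22 in DKO. Ctrl replicate 2 was the lowest library without targeted Id2 and was above all 6 libraries with it. The mean was 8.40 ± 2.76 FPKM in Ctrl and 2.08 ± 0.954 in Id2KO (SD, n = 3), a log2 difference of -1.61 ± 0.27 (SE) that missed the threshold (adjusted p = 0.0506). It passed in 7 of 26 alternative settings, with adjusted p from 0.0186 to 0.0484 in these. Among them were the fits without Ctrl replicate 2 (-1.85, adjusted p = 0.0377) and without Id2KO replicate 1 (-1.85, adjusted p = 0.0484). DKO differed from Ctrl by -0.94 ± 0.27 (adjusted p = 0.281) and from Id2KO by 0.67 ± 0.27 (0.393). The interaction, which asks whether targeting Id2 had the same effect with and without targeted Tcf7, was 0.89 ± 0.38 for Prdm1 (unadjusted p = 0.0414, adjusted p = 0.831). Id2 RNA itself differed by -3.00 in Id2KO against Ctrl and by -1.41 in DKO against Tcf1KO (interaction 1.58 ± 0.23, adjusted p = 0.0850). The part of this unequal loss of Id2 RNA in the interaction of Prdm1 was not tested.

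Zfp683 (ENSMUSG00000049410, chromosome 4, 134053838 to 134058996), the gene of Hobit, had its higher values in the groups where those of Eomes were lower. It stood at 6.17, 2.87 and 6.33 FPKM in Ctrl, 13.3, 9.70 and 11.7 in Tcf1KO and 13.3, 10.7 and 8.77 in DKO. All 6 of these libraries lay above every control. Id2KO had 5.35, 10.2 and 5.55, so replicate 2 reached the levels of the groups with targeted Tcf7. The log2 difference from Ctrl was 1.09 ± 0.30 (SE) in Tcf1KO (adjusted p = 0.554) and 1.0 ± 0.30 in DKO (0.299). This was the least covered of the 10 genes, with 59 to 348 recovered reads per library. The ratio of Prdm1 to Zfp683 was 1.37 to 1.92 in the control libraries and 0.125 to 0.766 in the 9 libraries with Cre.

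Irf8, Ikzf3 and Gata3 showed smaller differences, and most of their groups overlapped. Irf8 (ENSMUSG00000041515, chromosome 8, 120736358 to 120756694) encodes an interferon regulatory factor of NK and myeloid cells. Ctrl had 11.4, 9.09 and 8.87 FPKM and Tcf1KO 9.92, 9.86 and 6.65. Id2KO had 7.66, 8.66 and 4.49, and DKO 7.92, 7.68 and 5.41. Id2KO and DKO lay below Ctrl without overlap, with Id2KO replicate 2 (8.66) close to Ctrl replicate 3 (8.87). The log2 differences were -0.48 ± 0.24 (SE, adjusted p = 0.580) and -0.44 ± 0.24 (0.625). The first was -0.23 without Id2KO replicate 3 and the second -0.29 without DKO replicate 3. Without the 3 libraries of lowest array weight they were -0.28 and -0.33.

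Ikzf3 (ENSMUSG00000018168, chromosome 11, 98464902 to 98546031), the gene of the zinc finger factor Aiolos, ranged from 36.3 to 71.2 FPKM in Ctrl and 30.9 to 46.6 in Id2KO. It ranged from 48.6 to 76.5 in Tcf1KO and 43.3 to 56.8 in DKO, with overlap in every pair of groups compared except Id2KO against Tcf1KO, which was not tested. Its differences from Ctrl lay between -0.45 ± 0.27 (SE, Id2KO, adjusted p = 0.651) and 0.07 ± 0.27 (Tcf1KO, 0.999). Gata3 (ENSMUSG00000015619, chromosome 2, 9857078 to 9890034), a factor of T cells and innate lymphoid cells, stood at 6.88, 6.99 and 10.02 FPKM in Ctrl and 7.76, 10.1 and 8.40 in Id2KO. Tcf1KO had 4.74, 5.34 and 8.40 and DKO 8.09, 8.78 and 10.1 FPKM. The largest of its 5 pairwise differences was that of DKO against Tcf1KO (0.51 ± 0.22, adjusted p = 0.706), and the groups overlapped.

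The homing and quiescence factors showed different patterns: Foxo1 had its higher values where Id2 was targeted, and Klf2 varied mostly between libraries of a group. Foxo1 (ENSMUSG00000044167, chromosome 3, 52268336 to 52353221) stood at 26.9, 22.6 and 32.3 FPKM in Ctrl and at 45.1, 36.3 and 46.2 in Id2KO. Tcf1KO had 21.5, 22.0 and 28.2, and DKO 29.8, 30.0 and 36.4. Every Id2KO library lay above every control, and every DKO library above every Tcf1KO library, while DKO overlapped both Ctrl and Id2KO. The log2 difference was 0.63 ± 0.18 (SE) in Id2KO against Ctrl (adjusted p = 0.267), 0.41 ± 0.18 in DKO against Tcf1KO (0.706) and -0.40 ± 0.18 in DKO against Id2KO (0.446). The ratio of Foxo1 to Tbx21, also formed after seeing the values, was 0.928 to 1.03 in Ctrl and 1.62 to 2.61 in Id2KO. It was 0.563 to 0.891 in Tcf1KO and 1.45 to 1.77 in DKO, so all 6 libraries with targeted Id2 lay above the other six.

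Klf2 (ENSMUSG00000055148, chromosome 8, 72319033 to 72321656) stood at 72.5, 32.8 and 117 FPKM in Ctrl and at 47.8, 56.9 and 80.3 in Id2KO. Tcf1KO had 78.7, 28.4 and 53.3, and DKO 75.6, 51.1 and 92.3. Its control SD was 42.1 FPKM around a mean of 74.1. The 5 pairwise log2 differences lay between -0.40 ± 0.46 and 0.52 ± 0.46 (SE, adjusted p from 0.900 to 0.999).

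**Figure D3:**
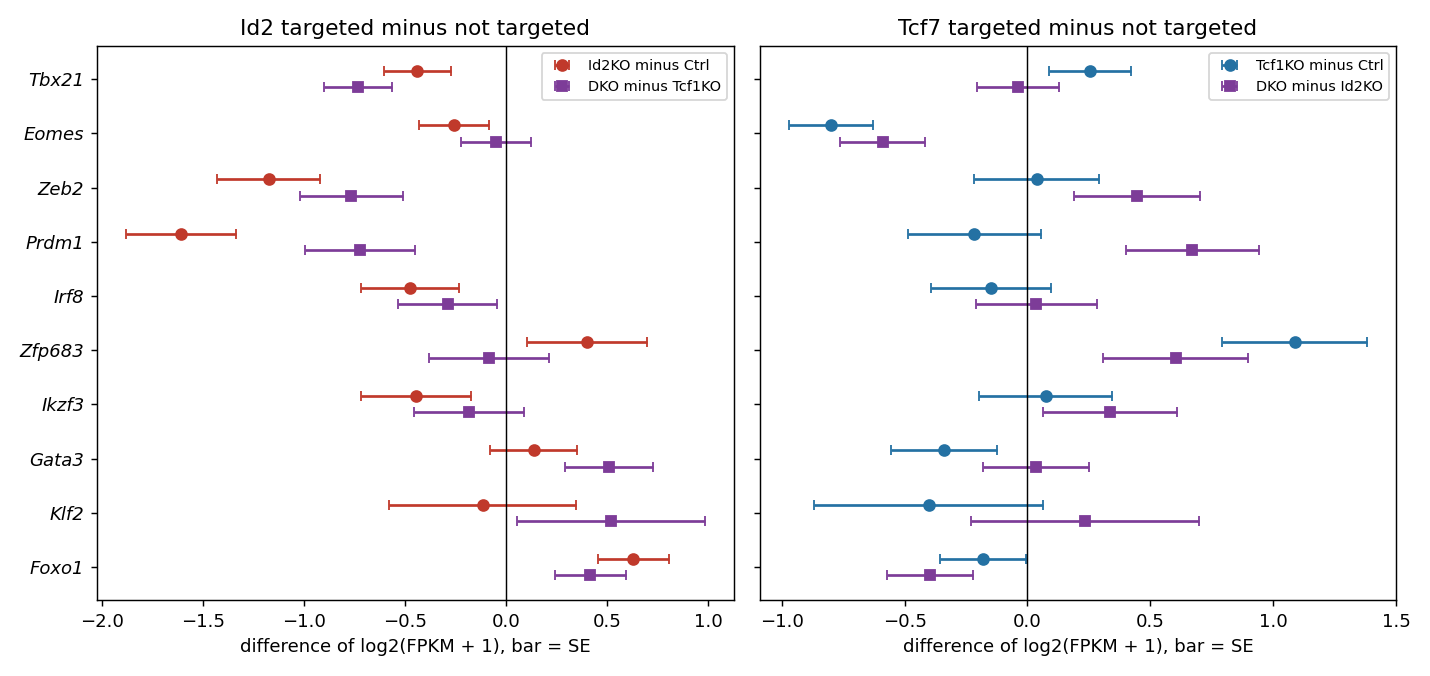
Log2 differences of the 10 genes, on the log2(FPKM + 1) scale with bars of 1 standard error, in the 4 comparisons in which 1 gene is targeted on 1 side only. Zeb2 and Prdm1 sit lowest in Id2KO against Ctrl (-1.17 and -1.61), Eomes and Zfp683 lie on opposite sides of 0 in Tcf1KO against Ctrl (-0.80 and 1.09), and Klf2 has the widest bars.

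Counted together, 0 of the 10 genes passed limma's test at an adjusted p of 0.05 in any of the 6 comparisons of the design. Of all 12384 genes tested, 0.178% passed in Id2KO against Ctrl, 0% in Tcf1KO against Ctrl and 0.145% in DKO against Ctrl. The shares were 0.121% in DKO against Id2KO, 0.0565% in DKO against Tcf1KO and 0% in the interaction. With voom on recovered reads 2 of the 10 passed in Id2KO against Ctrl (Zeb2 and Prdm1), and 0 in the others. At an unadjusted p under 0.05 the counts were 4 of 10 in Id2KO against Ctrl (9.71% of all genes), 2 in Tcf1KO against Ctrl (4.8%) and 5 in DKO against Ctrl (9.44%). They were 3 in DKO against Id2KO (10.9%), 5 in DKO against Tcf1KO (6.73%) and 1 in the interaction (5.94%).

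The libraries of the groups compared did not overlap for 5 of the 10 genes in Id2KO against Ctrl, where this held for 13.9% of all tested genes. Tbx21, Zeb2, Prdm1 and Irf8 were the lower ones and Foxo1 the higher one. In DKO against Ctrl it held for 6 of 10 (13.5% of all genes), with Tbx21, Eomes, Zeb2, Prdm1 and Irf8 lower and Zfp683 higher. In Tcf1KO against Ctrl it held for Eomes and Zfp683 (10.7%), in DKO against Id2KO for Eomes (14.7%), and in DKO against Tcf1KO for Tbx21, Zeb2, Prdm1 and Foxo1 (12.6%). The 3 comparisons with Ctrl share its libraries, so their counts are not independent. The 10 genes were also chosen with earlier results of these data known. The median log2 difference of the 10 genes against Ctrl was -0.35 (Id2KO), -0.17 (Tcf1KO) and -0.28 (DKO), and that of all tested genes was -0.0079, -0.0016 and -0.0090 in the same order.

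Since each gene was targeted in 2 of the 4 groups, 2 averaged comparisons were added after seeing the data, each with 6 libraries on a side. Averaged over both Tcf7 states, Prdm1 fell with targeted Id2 (log2 difference -1.17 ± 0.19 (SE), adjusted p = 0.0341), lower in 6 of 6 libraries than in any of the other six. It was the 1 gene of the 10 that passed, against 0.299% of all tested genes. Zeb2 (-0.97 ± 0.18, adjusted p = 0.0666), Tbx21 (-0.59 ± 0.12, 0.0796) and Foxo1 (0.52 ± 0.12, 0.134) did not pass. Tbx21, Zeb2 and Prdm1 did not overlap between the 6 libraries on either side, as held for 0.896% of all tested genes.

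Averaged over both Id2 states, Eomes fell with targeted Tcf7 (-0.69 ± 0.12 (SE), adjusted p = 0.0454), again lower in 6 of 6 libraries. It was the 1 of the 10 that passed, against 0.371% of all genes, and the 1 whose libraries did not overlap, against 0.88%. Zfp683 differed by 0.84 ± 0.21 (adjusted p = 0.171) and Foxo1 by -0.29 ± 0.12 (0.490). The calls of Prdm1 and Eomes were near the threshold. With the replicate number as a block in limma's model neither passed (adjusted p = 0.05002 and 0.0875). Without the 3 libraries of lowest array weight Prdm1 had -1.30 (adjusted p = 0.0903) and Eomes -0.85 (adjusted p = 0.0224). Over the fits that leave out 1 library the adjusted p of Prdm1 ran from 0.0330 to 0.111 and that of Eomes from 0.00972 to 0.143. The Prdm1 call was lost without Ctrl replicate 1 or 3, without Id2KO replicate 2, and without any single Tcf1KO or DKO library. The Eomes call was lost without any single library other than Id2KO replicate 3.

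Genes whose RNA marks the stages on which these factors act were counted from lists of known genes. Of 20 genes of mature NK cells (surface receptors, granule proteins and integrins), 19 were lower in Id2KO than in Ctrl (median -0.69). Libraries did not overlap for 16 of the 19, as held for 13.9% of all tested genes in either direction. At the adjusted threshold 4 of the 20 passed, all lower, against 0.178% of all tested genes. They were Itgam, the CD11b chain (9.69, 8.77 and 8.76 to 1.14, 1.65 and 1 FPKM, log2 difference -2.16, adjusted p = 0.000974), and Klrg1, an inhibitory receptor (26.1, 28.9 and 17.8 to 2.88, 2.04 and 0.65, -3.20, adjusted p = 0.00109). The others were S1pr5, the receptor that lets NK cells leave the marrow (-3.28, adjusted p = 0.00298), and Il12rb2, a chain of the interleukin-12 receptor (37.8, 47.7 and 45.9 to 17.3, 21.3 and 21.7 FPKM, -1.08, adjusted p = 0.0274). In DKO against Ctrl 16 of 20 were lower, with a list median of -0.55. Klrg1 and S1pr5 fell there (-2.11 and -2.33, adjusted p = 0.0298 and 0.0424), where 0.145% of all tested genes passed. In Tcf1KO against Ctrl 0 of 20 passed and the median was -0.20.

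In DKO against Id2KO 16 of the 20 genes were higher and 4 lower. Libraries did not overlap for 7 of the higher and 1 of the lower, as held for 14.7% of all tested genes in either direction. The lower one was Lgals1 (-1.14, adjusted p = 0.187). At the adjusted threshold 2 of the 20 passed, both higher, against 0.121% of all tested genes. Itgam stood at 4.29, 4.93 and 4.14 FPKM in DKO and rose by 1.28 ± 0.19 (SE, adjusted p = 0.0311). Cd226, the activating receptor DNAM-1, stood at 10.5, 11.2 and 12.9 in Id2KO and 28.2, 31.4 and 26.8 in DKO and rose by 1.25 ± 0.17 (adjusted p = 0.0205). The list median was 0.42 there. For Prdm1 and Zeb2 the same comparison gave 0.67 ± 0.27 and 0.45 ± 0.25, which did not pass. Id2 itself was higher in DKO than in Id2KO, without overlap (1.18 ± 0.16, adjusted p = 0.0205), and the part of this in the comparison was not tested. Gzmb, a granzyme gene, had 147, 108 and 97.2 FPKM in Ctrl, 21.4, 35.5 and 23.5 in Id2KO and 67.2, 81.2 and 29.7 in DKO, where DKO replicate 3 was low as it was for Zeb2.

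**Figure D4:**
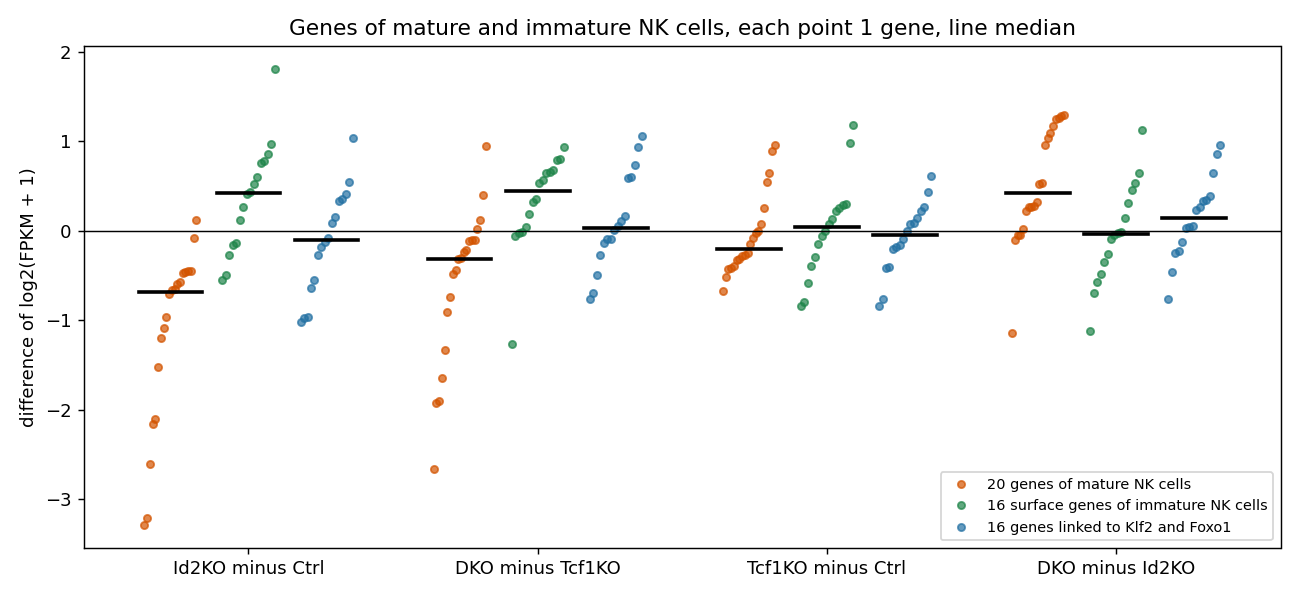
Log2 differences of single genes (points) and list medians (lines) for 20 genes of mature NK cells, 16 of immature NK cells and 16 linked to Klf2 and Foxo1, in 4 comparisons. The median of the mature list is -0.69 in Id2KO against Ctrl and 0.42 in DKO against Id2KO.

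Of 16 surface and secreted genes of immature NK cells, 0 passed in the comparisons of the design. In Id2KO against Ctrl 11 were higher and the median was 0.42, with 5 of the 11 without overlap (13.9% of all tested genes, either direction). Cd27, the costimulatory receptor lost on maturation, stood at 59.0, 53.9 and 58.6 FPKM in Ctrl and 86.4, 115 and 97.0 in Id2KO (0.78 ± 0.16 (SE), adjusted p = 0.108). In the averaged comparisons Cxcr3, a chemokine receptor, rose with targeted Id2 (0.81, adjusted p = 0.0300). With targeted Tcf7 Tnfsf10, the gene of TRAIL, rose (1.05, adjusted p = 0.0370), and Kit, a growth factor receptor, fell (-0.96, adjusted p = 0.0385). Of the 16 genes 8 were higher and 8 lower with targeted Tcf7, with a median of -0.03. Tnfsf10 is also on the list of ILC1 and tissue-resident markers, and Kit on that of basophil and mast cell markers.

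Of 16 genes known to follow KLF2 or FOXO1, 0 passed in any comparison, and list medians against Ctrl lay between -0.10 and -0.02. In Id2KO against Ctrl 7 of the 16 had a positive and 9 a negative difference (median -0.10). Of the 16, 0 were higher and 3 were lower at an unadjusted p under 0.05, as 9.71% of all tested genes were in either direction. They were the chemokine receptor gene Cxcr4 (-0.98, adjusted p = 0.373), the repressor gene Bcl6 (-0.96, 0.349) and Sesn1 (-0.64, 0.400).

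Among 40 other transcription factor genes of NK and innate lymphoid cells (38 tested), Id3 and Tcf7 rose and Id2 fell in Id2KO against Ctrl. In Tcf1KO against Ctrl 0 passed, and in DKO against Ctrl Id3 rose and Id2 fell. Id3, an E protein inhibitor itself, stood at 1.70, 2.93 and 1.66 FPKM in Ctrl, 11.7, 25.8 and 16 in Id2KO and 2.45, 4.72 and 5.78 in Tcf1KO, with 10.3, 9.72 and 15.4 in DKO. With targeted Tcf7, averaged over both Id2 states, Ikzf2 rose (1.17 ± 0.17 (SE), adjusted p = 0.0208) and Myb fell (-0.83 ± 0.12, adjusted p = 0.0255). Ikzf2, the gene of Helios and a relative of Ikzf3, stood at 12.4, 12.6 and 12.2 FPKM in Ctrl, 10.9, 9.80 and 18.8 in Id2KO and 25.7, 35.5 and 28.7 in Tcf1KO, with 23.4, 29.8 and 35.1 in DKO. Myb, a factor of progenitor cells, stood at 7.86, 9.43 and 8.61 in Ctrl, 15.6, 12.1 and 16.6 in Id2KO and 5.25, 4.62 and 4.02 in Tcf1KO. In DKO it had 6.64, 6.91 and 9.12, overlapping Ctrl. Of 29 family relatives of the 10 genes, 23 were tested and 0 passed in the comparisons of the design.

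For these genes the tested genes most alike over the 12 libraries were found by Pearson r of log2(FPKM + 1), as a description. The 12 libraries share 4 groups. Eomes was closest to Klri2, an NK receptor gene (0.954), and Ncr1 (0.930). Prdm1 was closest to Nfic (0.892), Ndst1 (0.891) and Itgam (0.888), and Zeb2 to Hipk2 (0.911), Rxra (0.907) and Gzmb (0.899). Klf2 was closest to Btg2 (0.967) and Rhob (0.904), and Foxo1 to Aff3 (0.942). Tbx21 was closest to Gtf3c4 (0.902), Irf8 to Magt1 (0.935), Zfp683 to Cnst (0.880) and Gata3 to H2-K1 (0.896).

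RNA of other bone marrow cells differed between the groups and stands beside the results on Zeb2, Prdm1 and Irf8, which myeloid cells also express. Neutrophil and myeloid markers (15 genes, 14 tested) summed to 907 to 3638 FPKM in Ctrl, 58.4 to 1038 in Id2KO, 1178 to 4307 in Tcf1KO and 322 to 789 in DKO. In Id2KO against Ctrl all 14 tested were lower, 10 without overlap, with a median of -3.10, and Elane and Cebpe were at 0 in every Id2KO library. Erythroid markers summed to 774 to 4825 FPKM in Ctrl, 177 to 1937 in Id2KO, 1357 to 3558 in Tcf1KO and 460 to 2748 in DKO. Basophil and mast cell markers summed to 171 to 638, 19.1 to 98.3, 52.4 to 766 and 58.9 to 622 FPKM in the same order. A score of the myeloid, monocyte, erythroid and basophil lists was added to the model after seeing the data. With it Id2KO against Ctrl gave -0.83 for Zeb2 (adjusted p = 0.543) and -1.81 for Prdm1 (0.238). With the same term the averaged comparisons gave -1.31 for Prdm1 (0.321) and -0.61 for Eomes (0.0608), neither past the threshold.

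Markers of T and NKT cells (14 genes, all tested) summed to 1022 to 1202 FPKM in Ctrl, 1338 to 1807 in Id2KO, 1480 to 1962 in Tcf1KO and 1907 to 2332 in DKO. Every library with Cre was above every control. In Id2KO against Ctrl 9 of the 14 were higher and 5 lower (median 0.17), and Cd3d of this list rose (1.39, adjusted p = 0.0183). Against Ctrl 12 were higher and 2 lower in Tcf1KO (median 0.84), and 13 were higher and 1 lower in DKO (median 0.94). In each of these 2 groups 10 of the higher genes did not overlap Ctrl. Lack of overlap in either direction held for 10.7% (Tcf1KO) and 13.5% (DKO) of all tested genes. In the comparison averaged over both Id2 states Cd3e and Trac of this list rose with targeted Tcf7 (1.55 and 1.23, adjusted p = 0.0162 and 0.0255). ILC1 and tissue-resident markers summed to 97.4 to 138 FPKM in Ctrl, 90.4 to 161 in Id2KO, 114 to 176 in Tcf1KO and 126 to 263 in DKO. Of these 10 genes, 8 were lower in Id2KO than in Ctrl (median -0.62), and 8 were higher in DKO than in Ctrl (median 0.62). These values stand beside those of Zfp683, Gata3, Foxo1 and Klf2, which such cells also express, and of Eomes, and their part in the results was not tested. Monocyte and dendritic cell markers summed to 224 to 355 FPKM in Ctrl, 192 to 356 in Id2KO, 366 to 404 in Tcf1KO and 423 to 468 in DKO. Of the 10 tested genes of this list, 7 were lower in DKO than in Ctrl (median -0.33). Ly6c2, also on the list of mature NK cells, was 1 of the 3 higher (1.29, adjusted p = 0.148). Plasmacytoid dendritic cell markers, of a cell type that also expresses Irf8, summed to 25.8 to 56.2, 50.9 to 69.6, 31.3 to 44.0 and 29.1 to 51.4 FPKM in the order Ctrl, Id2KO, Tcf1KO and DKO. B and plasma cell markers, of cells that also express Prdm1 and Irf8, summed to 173 to 259, 361 to 420, 163 to 216 and 262 to 288. In this sum every Id2KO and DKO library was above every Ctrl and Tcf1KO library, and Ighm rose with targeted Id2 in the averaged comparison (0.83, adjusted p = 0.0260). Most of the list went the other way there: of 5 tested genes 2 were higher and 3 lower, with a median of -0.15. ILC2 markers, of cells that also express Gata3, summed to 25.0 to 38.7, 5.24 to 7.15, 42.5 to 55.3 and 11.8 to 17.1, with Il5 and Il13 at 0 in every Id2KO library. Only 4 of the 10 ILC2 genes were tested. This list includes Klrg1, counted above among the genes of mature NK cells (-3.20 in Id2KO against Ctrl), so its sum does not mark ILC2 cells alone. The monocyte and dendritic cell list entered the model only within the joint score above, and its own part was not tested. The part of the plasmacytoid, B and plasma cell and ILC2 lists was not tested.

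**Figure D5:**
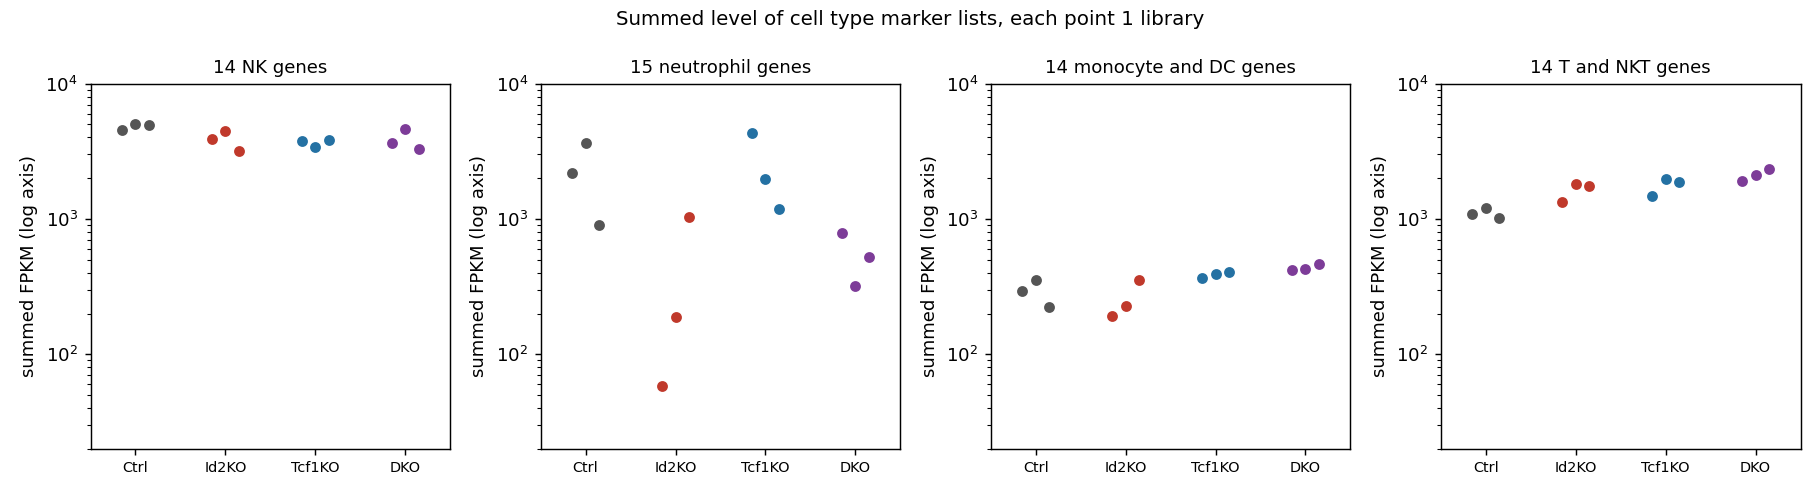
Summed FPKM of the NK, neutrophil and myeloid, monocyte and dendritic cell, and T and NKT cell marker lists in each library (points; log axis), by group. Id2KO holds the lowest neutrophil and myeloid sum (58.4 in its range of 58.4 to 1038), and the T and NKT cell sum is above the controls in every library with Cre.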

How the data were processed

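The deposited file holds FPKM per gene, made by the authors; per the submitters' processing notes the tools were Trimmomatic 0.33, TopHat2 2.1.0, HTSeq 0.6.1 and edgeR (no version) with the mouse genome mm10. The gene annotation used for counting is not given in the sources used here. Per the labels, RNA was taken with a Qiagen micro kit and libraries were made with Nugen Ovation Ultralow for a NextSeq500. The protocol writes CD9b where the marker label writes CD49b. Symbols and positions came from GENCODE M21 (GRCm38) for 32919 gene IDs, and 5072 kept their ID.

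The deposited FPKM values were used as log2(FPKM + 1), which understates changes of low genes. Genes at or above an FPKM of 1 in 3 or more libraries were kept. R 4.3.3 and limma 3.58.1 fitted all 12 libraries by group (lmFit, contrasts.fit, eBayes with a variance trend), with no replicate block. The tests were two-sided, p-values were adjusted by Benjamini-Hochberg within each comparison over 12384 genes, and the threshold was 0.05. In a comparison of 3 libraries against 3, an exact permutation test of single genes cannot reach 0.05. This bound does not hold for the averaged comparisons, which have 6 libraries on a side. The 2 averaged comparisons were added after seeing the data. Whole reads were recovered from the FPKM steps for 100.0% of the 23707 genes above 0, within 0.001 reads, for voom alternatives and for depth.

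The 10 genes and the gene lists were chosen with earlier results of these data known. Named were the 10 genes, Id2, Tcf7 and Ncr1, the list genes that passed or had the smallest p, and the genes most alike by r. Of the list genes 1 was not analysed here. The values of some genes that this rule names are not reported here. The procedure was tested on simulated data. Settings varied were pseudocount, filter, scaling, quantile normalization, variance trend, array weights, replicate block, the groups fitted and single libraries left out. Added after seeing the data were voom, a marker score (mean scaled level of 4 lists: myeloid, monocyte, erythroid and basophil) as a term, and leaving out 3 libraries. Tables used Python 3.11.15, pandas 2.3.3 and numpy 2.4.6, and figures matplotlib 3.10.9.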

Additional observations from a re-analysis of the deposited data

How the results depend on the processing

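Across 26 alternative settings (25 for the interaction and the averaged comparisons, which need all 4 groups), the count of the 10 genes that passed stayed at 0 in the interaction, in Tcf1KO against Ctrl, and in DKO against either single group. In Id2KO against Ctrl it was 1 with a filter at FPKM 5, median scaling, array weights or voom without mitochondrial ribosomal RNA (Prdm1 each time), 2 with voom on recovered reads, and 0 to 1 over the fits that leave out 1 library. In DKO against Ctrl it was 1 (Eomes) with voom without mitochondrial ribosomal RNA and 0 to 1 over the fits that leave out 1 library. For targeted Id2 averaged over both Tcf7 states, where 1 passed, the count was 0 with no filter, with the replicate block, with the marker score or without the 3 libraries of lowest array weight. It was 3 with array weights or with voom without mitochondrial ribosomal RNA (Tbx21, Zeb2 and Prdm1), 2 with voom, and 0 to 1 with 1 library left out. For targeted Tcf7 averaged over both Id2 states it was 0 with no filter, no variance trend, the replicate block or the marker score, and 0 to 1 with 1 library left out. The cause of these changes was not tested.

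The adjusted p of Prdm1 in Id2KO against Ctrl ran from 0.0186 to 0.267 over all settings and that of Zeb2 from 0.0459 to 0.543; both stayed below Ctrl in all 26. For the averaged comparisons it ran from 0.0119 to 0.321 (Prdm1) and from 0.00788 to 0.143 (Eomes), always with the same direction. Genes called among all tested ran from 2 to 44 in Id2KO against Ctrl (22 as reported), 0 to 7 in Tcf1KO against Ctrl (0), 0 to 29 in DKO against Ctrl (18), 0 to 31 in DKO against Id2KO (15) and 0 to 15 in DKO against Tcf1KO (7). They ran from 6 to 85 for the Id2 average (37) and 5 to 89 for the Tcf7 average (46).

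The directions that turned belong to differences that passed in no setting. With 1 library left out, Klf2 ran from -0.61 to 0.30 in Id2KO, -0.89 to 0.012 in Tcf1KO and -0.37 to 0.53 in DKO, each against Ctrl. Against Ctrl, Ikzf3 ran from -0.22 to 0.26 in Tcf1KO and -0.40 to 0.072 in DKO, Zeb2 from -0.070 to 0.13 in Tcf1KO, and Irf8 from -0.24 to 0.020 in Tcf1KO. In DKO against Id2KO the ranges were -0.13 to 0.067 for Tbx21, -0.21 to 0.20 for Irf8 and -0.043 to 0.13 for Gata3. In DKO against Tcf1KO they were -0.23 to 0.049 for Zfp683 and -0.31 to 0.012 for Ikzf3, and in the interaction -0.059 to 0.35 for Irf8. Array weights gave -0.11 for Ikzf3 in Tcf1KO against Ctrl, -0.15 for Klf2 in DKO against Ctrl and -0.0025 for Irf8 in DKO against Id2KO. Quantile normalization gave 0.0042 for Tbx21 and median scaling -0.0041 for Gata3 in DKO against Id2KO. The marker score gave -0.26 and -0.0080 for Gata3 in Id2KO and DKO against Ctrl, and 0.10 for Tbx21 in DKO against Id2KO. Without the 3 libraries of lowest array weight Ikzf3 had -0.22 in Tcf1KO against Ctrl, Klf2 -0.56 in DKO against Ctrl, Irf8 -0.056 and Gata3 -0.067 in DKO against Id2KO, and Zfp683 0.049 in DKO against Tcf1KO.

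Libraries with the same replicate number had correlations of deviations over 0.1 in 6 of 18 pairs (median 0.030). All 6 lay among Ctrl, Tcf1KO and DKO, the highest (0.27) between Tcf1KO and DKO replicate 3, and none involved Id2KO. Since not every library correlated best with its own number, the numbers were not taken to pair the samples. A pairing within Ctrl, Tcf1KO and DKO alone was not tested. With the replicate block Prdm1 had adjusted p = 0.0805 for Id2KO against Ctrl and 0.05 for the Id2 average, and Eomes 0.0875 for the Tcf7 average. The block moved the genes called in DKO against Tcf1KO from 7 to 15 and for the Tcf7 average from 46 to 28. With 59 to 348 reads, Zfp683 has the widest counting error of the 10 genes.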
